A study of Mus musculus with 2 samples.

Results

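The olfactory receptor genes described here lie outside the large receptor gene clusters of the mouse. The rule that chose them used the annotation alone, but it was set with earlier results of these data known. It took protein-coding genes of GENCODE M21 on the genome build GRCm38 whose symbol starts with Olfr. They had to stand in runs of fewer than 5 such genes. A run was a series of consecutive Olfr genes on a chromosome, and a gap of more than 500 kb ended it. Of 1134 receptor genes, 1092 stood in runs of 5 or more, called clusters below, and 42 in shorter runs. Chromosomes 9, 10, 17 and 19 were left out by the rule, and the 4 genes in a shorter run on chromosome 17 are not analysed here. This left 38 genes in 21 runs on 11 chromosomes, with 9 genes that stood singly, 8 pairs, 3 runs of 3 and 1 run of 4. Chromosome 11 held 7 of them, chromosomes 4 and 8 held 5 each, chromosomes 7 and 14 held 4 each, chromosomes 6 and 16 held 3 each, chromosomes 3, 13 and X held 2 each, and chromosome 5 held 1.

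The genes were set against domain boundaries measured by in situ Hi-C, an assay that cuts DNA in fixed nuclei, joins ends that lie close together in space and counts the joined pairs. The cells were immediate neuronal precursors, primary cells of the strain FVB/NTac taken at the pup stage from olfactory epithelium of mixed sex, with no treatment or modification listed. Ngn1-GFP mice are named as the source of the sort, in which GFP reports the proneural gene Ngn1 (Neurog1). The study's single group held 2 biological replicates of 2200000 and 2100000 cells, fixed with 1% formaldehyde and digested with DpnII. The list holds 7841 boundary intervals of 5 kb called on the combined contacts of both replicates. Each interval has a score, higher where contacts across it are more depleted, and a class that is strong from a score of 0.5 and weak below it. No value has a replicate error, the sequencing depth is unknown, and no test between samples was possible. The intervals given below cover counting error over genes only, and genes of 1 run share their surroundings. Expression was not measured, so the sorted cell type could not be checked against its markers.

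Olfactory receptors are G protein-coupled receptors in the cilia of olfactory sensory neurons. A mature neuron transcribes a single receptor gene from a single allele, while the other receptor genes are packed in heterochromatin. Most receptor genes arose by tandem duplication and stand in large arrays, and their transcription depends on enhancers bound by Lhx2, Ldb1 and Ebf factors. Genes outside the arrays stand among genes of other families. Domain boundaries limit contacts between neighbouring stretches of chromosome, and many are held by the DNA-binding factor CTCF together with cohesin.

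Receptor genes outside clusters did not start at boundaries of the precursors. Within 10 kb of a boundary interval lay 0 of the 38 starts, which allows a share of up to 7.89%, or 14.3% if each of the 21 runs is counted once. Over all 21728 protein-coding genes the share was 16.4%, and over receptor genes in clusters it was 83 of 1092, 7.60% (Wilson 95% interval 6.17 to 9.33%). The limit for the 38 genes lies above the share of the clustered genes, so a difference from them was not detectable with so few genes. Among the 107 protein-coding genes other than receptor genes that share a domain with the 38, 16 (15.0%, interval 9.42 to 22.9%) started within 10 kb of a boundary. These neighbours thus started at boundaries at about the rate of all genes, in the same domains in which no receptor gene did so. With each run counted once, the limit of 14.3% lies within the interval of the neighbours. Counted that way, a difference between receptor genes and their neighbours was not detectable.

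The start closest to a boundary was that of Olfr267 on chromosome 4, a single gene 17.7 kb from a strong boundary (score 1.03). Olfr374 on chromosome 8 followed at 23.0 kb (score 1.16), and Olfr459 on chromosome 6 stood 25.2 kb from a weak boundary (0.352). Olfr291 on chromosome 7 lay at 33.6 kb and Olfr372 on chromosome 8 at 36.2 kb. At the far end were Olfr1371 on chromosome 11 at 186 kb, Olfr15 on chromosome 16 at 161 kb, Olfr1325 on chromosome X at 158 kb, Olfr466 on chromosome 13 at 145 kb and Olfr1373 on chromosome 11 at 141 kb. All the others fell between these groups.

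The median distance from the 38 starts to the nearest boundary was 68.4 kb (95% interval of the median 53.7 to 76.4 kb). It was 76.9 kb for receptor genes in clusters (71.6 to 81.7 kb), 55.4 kb for all protein-coding genes (54.5 to 56.4 kb) and 88.4 kb for the other genes of the same domains (59.9 to 97.5 kb). The interval of the outside genes overlaps those of the clustered genes and of all genes. Their distances were bunched, with quartiles of 45.8 and 90.2 kb, against 36.1 and 134 kb in clusters and 21.4 and 102 kb over all genes. Within 50 kb of a boundary lay 11 of 38 starts (28.9%, Wilson interval 17.0 to 44.8%), against 46.3% of all genes and 371 of 1092 clustered receptor genes. Within 100 kb the order changed, with 29 of 38 (76.3%), against 74.2% of all genes and 62.0% in clusters. The share of the outside genes was thus below that of all genes at 10 and 50 kb and close to it at 100 kb.

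**Figure D1:**
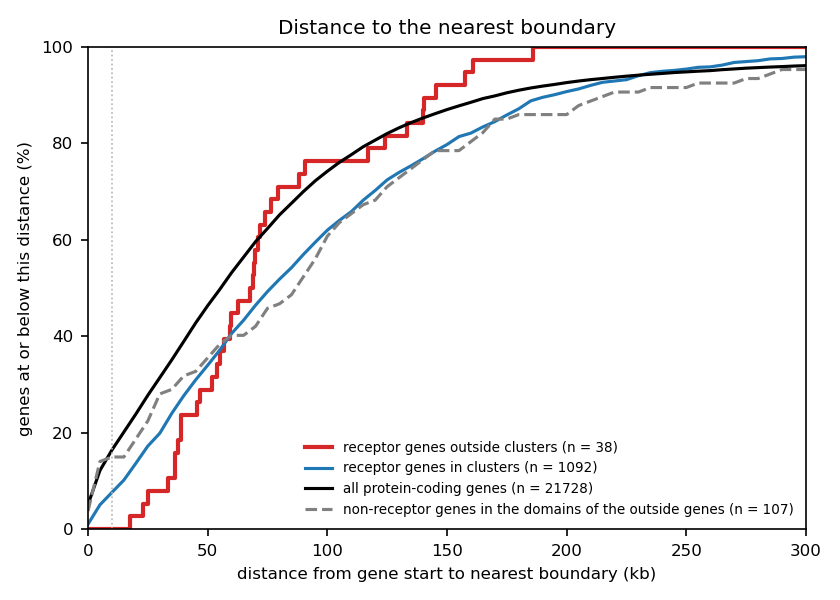
Cumulative share of gene starts (vertical axis, percent) by distance to the nearest boundary interval (horizontal axis, kb) for 38 receptor genes outside clusters, 1092 in clusters, all 21728 protein-coding genes and 107 other genes in the domains of the 38. The dotted line marks 10 kb, where the outside genes are at 0% and all genes at 16.4%, and the red line rises steeply between 50 and 80 kb.

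The boundaries closest to the outside genes had a median score near that for all genes and above that for clustered receptor genes. The median score of the nearest boundary was 0.796 (95% interval 0.598 to 1.03), against 0.378 (0.354 to 0.387) for receptor genes in clusters and 0.650 (0.643 to 0.656) for all protein-coding genes. The nearest boundary was strong for 26 of 38 genes (68.4%, Wilson interval 52.5 to 80.9%). The share over all protein-coding genes was 64.1%, so the share of the outside genes is near the background, while that of clustered genes was 33.0% (30.2 to 35.8%). Several members share a boundary: the 38 had 26 different nearest boundaries, of which 18 (69.2%) were strong, with a median score of 0.773 (0.439 to 1.03). Clustered receptor genes share boundaries too, but theirs were counted per gene only. The narrow intervals of the clustered genes thus treat genes that share a boundary as independent. Strong boundaries lay within 50 kb of 8 starts (21.1%, interval 11.1 to 36.3%), against 29.8% of all genes and 10.8% of clustered receptor genes.

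The highest scores stood next to Olfr291 (2.04, 33.6 kb) and Olfr720 on chromosome 14 (2.02, 56.8 kb), followed by Olfr1326-ps1 and Olfr1325 on chromosome X, which share a boundary with a score of 1.72 at 139.9 and 158 kb. The lowest stood next to Olfr290 (0.232, 51.9 kb), Olfr721-ps1 and Olfr31 (0.258, 38.7 and 117 kb), and Olfr161 and Olfr15 (0.282, 74.0 and 161 kb). The highest and the lowest score thus belong to neighbours: Olfr291 and Olfr290 face opposite borders of the same domain. So do Olfr720 and Olfr721-ps1.

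**Figure D2:**
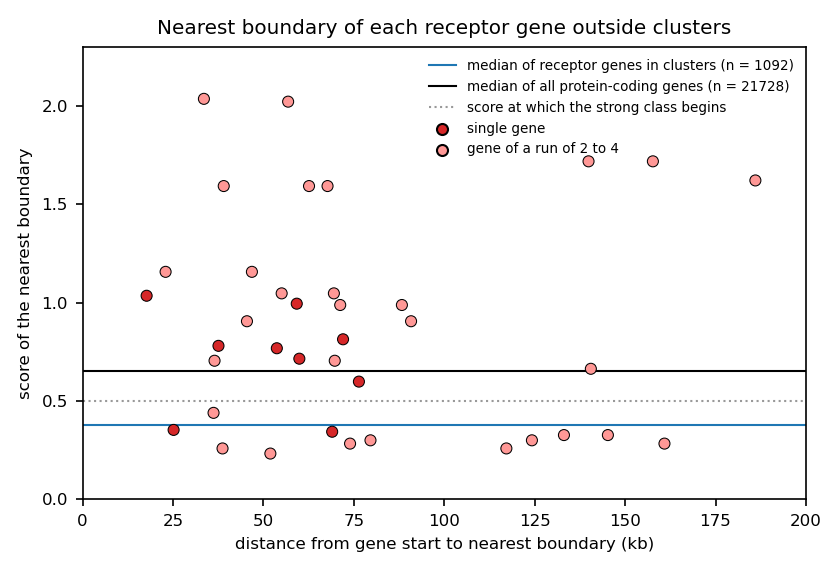
Score of the nearest boundary (vertical axis, the authors' score, no unit) against the distance to it (horizontal axis, kb) for the 38 receptor genes outside clusters, dark points for 9 single genes and light points for genes in runs of 2 to 4. Lines mark the medians of clustered receptor genes (0.378) and of all genes (0.650), and 26 points lie above the dotted line at 0.5, where the strong class begins.

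The domains that hold the outside genes were of ordinary length and mostly mixed in gene content. A domain was the stretch between neighbouring boundary intervals. The genes occupied 21 closed domains with a median length of 285 kb (95% interval 200 to 335 kb, range 125 to 2025 kb), and Olfr161, which lies ahead of the first boundary of chromosome 16, had no closed domain. Counted per gene, the median domain was 285 kb for the 37 genes with a closed domain (265 to 335 kb), against 370 kb (360 to 380 kb) for clustered receptor genes and 270 kb (270 to 275 kb) for all genes. Beside the gene itself, such a domain held a median of 4 protein-coding starts (range 0 to 16), against 5 over all genes. This count includes other receptor genes, whose number the rule limits. Only Olfr1402 on chromosome 3 was alone, in a domain of 250 kb with borders of 0.813 and 0.908.

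**Figure D3:**
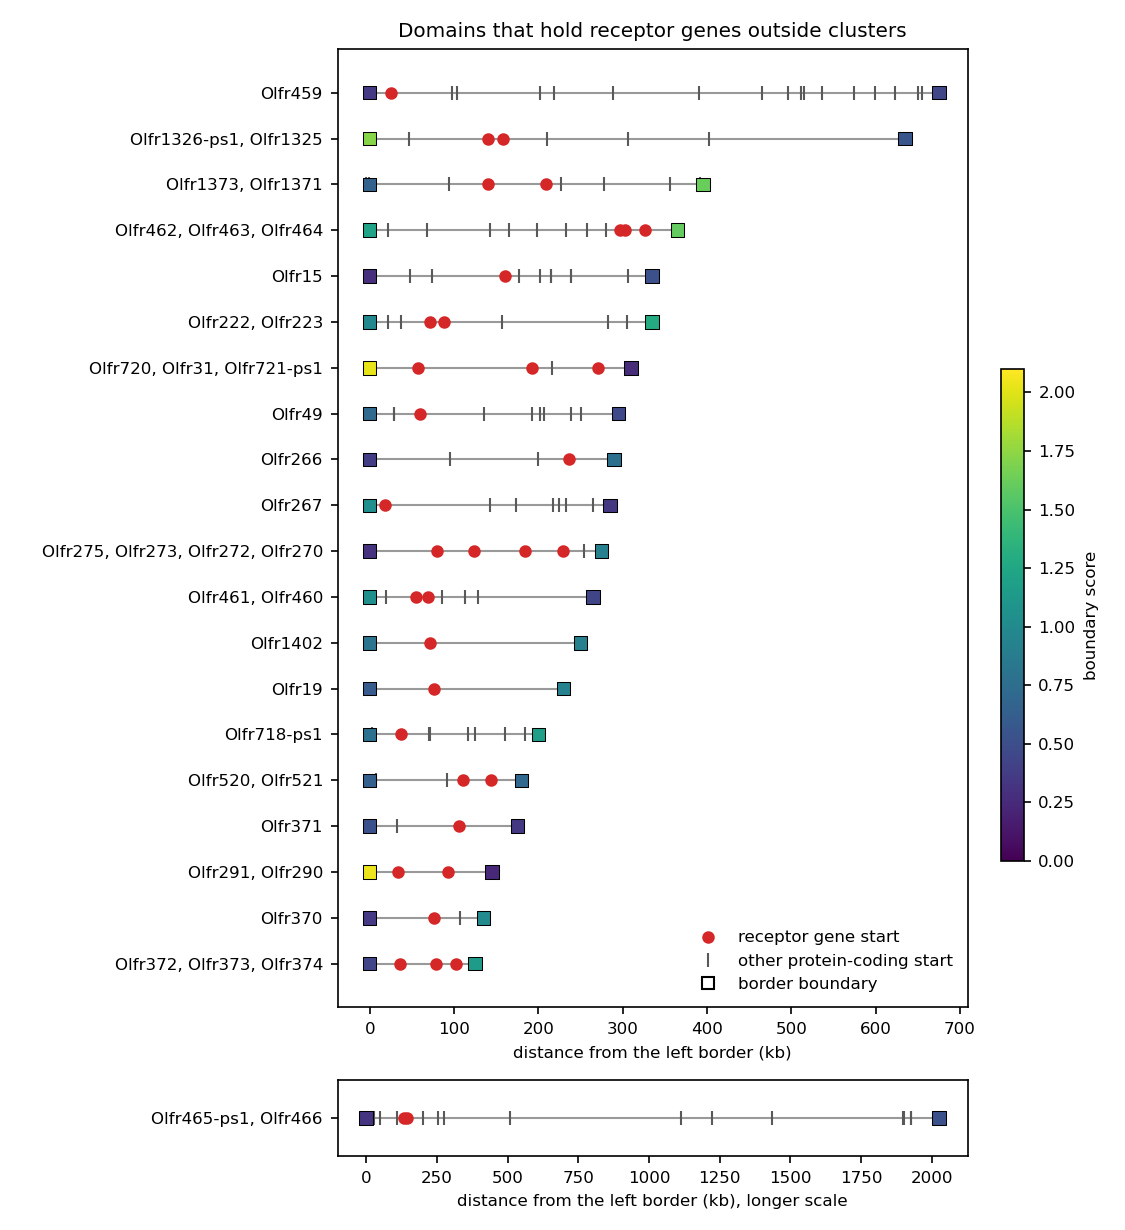
The 21 closed domains that hold receptor genes outside clusters, drawn to scale from the left border (horizontal axis, kb; the longest domain, 2025 kb, has its own scale). Red points are starts of the receptor genes, ticks other protein-coding starts, and squares the border boundaries coloured by score; 0 receptor starts lie within 10 kb of a border, while 16 of the 107 other starts do, some hidden under the squares.

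The borders of these domains often lay at the start of another gene. The 21 domains had 42 different borders, of which 28 (66.7%, Wilson interval 51.6 to 79.0%) were strong, against 52.8% of all 7841 boundaries. Both borders were strong in 8 of 21 domains (38.1%, interval 20.8 to 59.1%), against 34.9% of all closed domains that hold a protein-coding start. In 1, that of Olfr459, both were weak (4.76%, interval 0.846 to 22.7%), against 14.5% of closed domains that hold a protein-coding start. A protein-coding gene started within 10 kb of 24 borders (57.1%, interval 42.2 to 70.9%), against 34.3% of all boundaries. All boundaries include many in stretches without genes, so these shares are not from like surroundings. The start nearest to the border was that of another gene at 36 of the 42 borders, from 0 to 117 kb away, and that of a receptor gene at 6, from 17.7 to 79.6 kb away. Other starts in these domains number 107 against 37 receptor starts, and starts beyond a border count too. The majority of other genes thus follows largely from their number. Starts lay inside 6 of the intervals, among them those of the ubiquitin-conjugating enzyme gene Ube2b, the tropomyosin gene Tpm4 and the retromer gene Vps35. None was a receptor gene.

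On chromosome 11, Olfr1373 and Olfr1371 (chr11:52144593-52213987) occupied the middle of a 395-kb domain with strong borders of 0.663 and 1.62. Their starts were 141 and 186 kb from the nearer border, the latter the largest distance of all 38. The nearest other starts were those of Ppp2ca (the catalytic subunit of protein phosphatase 2A) 46.8 kb from Olfr1373, and Skp1a (a ubiquitin ligase subunit) 18.0 kb from Olfr1371, with Tcf7 (a Wnt pathway factor) farther off. Olfr222 and Olfr223 (chr11:59570255-59593289) started 71.2 and 88.3 kb from their left border (0.987). They shared a 335-kb domain with Nlrp3, the inflammasome sensor gene, whose start was 34.7 kb from that of Olfr222 and closer to the border, at 36.6 kb.

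Olfr462, Olfr463 and Olfr464 (chr11:87884979-87920967) stood at the right end of a 365-kb domain with borders of 1.22 and 1.59, at 67.7, 62.6 and 39.0 kb from the right border. The rest of that domain held the peroxidase genes Epx, Lpo and Mpo of eosinophils, secretions and myeloid cells, with Epx 16.7 kb from Olfr462. Of the runs of 3 or more, this was the only one between 2 strong borders.

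The 3 genes on chromosome 14, Olfr720, Olfr31 and Olfr721-ps1 (chr14:14171738-14410095), were spread over 238 kb of a 310-kb domain with a strong left border (2.02) and a weak right one (0.258). Their distances were 56.8, 117 and 38.7 kb, and the interleukin 3 receptor gene Il3ra, 23.4 kb from Olfr31, was the only other gene of the domain. The run of 4 on chromosome 4, Olfr275, Olfr273, Olfr272 and Olfr270 (chr4:52814604-52972474), spanned 158 kb of a 275-kb domain with borders of 0.299 and 0.905, at 79.6, 124, 90.8 and 45.5 kb. Only Nipsnap3a started beside them, 24.7 kb from Olfr270. In both domains the receptor genes outnumbered the other genes.

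On chromosome 8, Olfr372, Olfr373 and Olfr374 (chr8:72041218-72118200) shared the shortest of the 21 domains, 125 kb, at 36.2, 46.8 and 23.0 kb from a border. The cytochrome gene Cyp4f18 was the only other gene. Its start lay 31.6 kb from that of Olfr372 and 4.63 kb from the left border (0.439), whereas the right border (1.16) held the start of Tpm4. Olfr370 (135 kb) and Olfr371 (175 kb) stood singly on the same chromosome, 59.2 and 69.0 kb from a boundary. Beside Olfr370 started Ndufb7, a subunit gene of respiratory complex I, at 30.9 kb, and Scoc at 77.4 kb.

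On chromosome 7, Olfr291 and Olfr290 (chr7:84853553-84920861) occupied a 145-kb domain between the strongest (2.04) and the weakest (0.232) of the 42 borders. The other gene there was Vmn2r65, a vomeronasal receptor gene, whose start lay 0.886 kb from the weak border. Olfr520 and Olfr521 (chr7:99730273-99769321) started 69.7 and 36.5 kb from a boundary of 0.704 in a 180-kb domain with the transporter gene Slco2b1, 18.9 kb from Olfr520, and with Tpbgl.

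On chromosome 6 the outside genes shared their domains with bitter taste receptor genes. Olfr461 and Olfr460 (chr6:40542171-40574343), at 55.1 and 69.5 kb from a boundary of 1.05, shared a 265-kb domain with Tas2r138, the lectin gene Clec5a and the protease-like gene Prss37. Olfr459, 1194 kb from Olfr460, stood near the left edge of a 675-kb domain, the second longest, with 16 other starts. These included Pip, a secreted protein gene, 72.4 kb away, and Tas2r139, and Tas2r126 was the gene closest to the right border (4.54 kb).

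The longest domain, 2025 kb on chromosome 13, held Olfr465-ps1 and Olfr466 (chr13:65138089-65156152) at 133 and 145 kb from its weak left border (0.326). Mfsd14b started 25.1 kb from Olfr465-ps1, and Nlrp4f and Prss47 followed. Interspersed repeats and low complexity, as masked in the reference, made up 42.7% of it. On chromosome X, Olfr1326-ps1 and Olfr1325 (chrX:74569153-74597578) shared a 635-kb domain with 4 predicted genes, and its left border (1.72) lay 0.807 kb from the start of G6pdx, the first enzyme of the pentose phosphate pathway. On chromosome 16, Olfr161 and Olfr15 (chr16:3591042-3844747) stood on either side of a weak boundary (0.282), and 10 other genes started in the 335-kb domain of Olfr15, the zinc finger gene Zfp174 nearest at 16.4 kb.

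The remaining single genes were Olfr49 on chromosome 14 (59.9 kb, score 0.714), Olfr19 on chromosome 16 (76.4 kb, 0.598), Olfr1402 (72.0 kb, 0.813) and Olfr266 on chromosome 3 (53.7 kb, 0.767), and Olfr718-ps1 on chromosome 5 (37.6 kb, 0.780). With Olfr267, Olfr370, Olfr371 and Olfr459, the 9 single genes ranged from 17.7 to 76.4 kb, so the 9 distances above 100 kb all belonged to genes in runs. Olfr19 lay between the starts of Fgd4 and Spag6l, which were 0.549 and 0.545 kb from the left and right border. Olfr267 showed the opposite arrangement, being itself the gene closest to its left border.

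Of the 12 runs of 2 to 4 genes, 11 lay within a single domain, and the boundary between Olfr161 and Olfr15 was the exception. No like count of whole runs was made for other genes. Between adjacent genes of a run a boundary fell in 1 of 17 cases (5.88%). This was near the 83 of 1059 (7.84%) between adjacent genes of clusters, which were chosen with the same limit on gaps. Over all adjacent protein-coding genes the share was 5914 of 21708 (27.2%). Those pairs had no limit on gaps, so the shares are not from like spacing. Toward the next receptor gene the rule sets a gap above 500 kb, longer than most domains, so boundaries in these gaps follow largely from the rule. The shortest gap was that of Olfr459, 685 kb from Olfr458 in a cluster of 20 genes with 1 boundary between them, followed by Olfr222 and Olfr223, 726 kb from Olfr311 with 5 boundaries between. Olfr718-ps1 had no other receptor gene on its chromosome.

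At the limit that divides runs from clusters, the run of 4 on chromosome 4 had distances of 45.5 to 124 kb. Just outside the limit, runs of 5 on chromosomes 11, 6 and X had distances of 6.89 to 51.4 kb, 15.8 to 61.5 kb and 25.1 to 309 kb.

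Within their domains the outside genes stood at all depths. The distance to the nearer border was a median of 23.1% of the domain (95% interval 18.8 to 29.0%), against 22.6% for all genes, and ranged from 3.73% for Olfr459 to 48.0% for Olfr15. At least 20% of the domain lay on both sides of 24 of 37 genes (64.9%, Wilson interval 48.8 to 78.2%), against 55.1% of all genes. Transcription ran toward the nearest boundary in 24 of 38 genes (63.2%, interval 47.3 to 76.6%), against 48.3% of all genes and 52.2% of clustered receptor genes. Both intervals include the share of all genes.

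The median GC content around the starts of the outside genes lay between that of clusters and that of all genes. Within 10 kb of the start the GC content had a median of 40.3% (quartiles 38.4 and 43.2%), against 37.8% in clusters (36.4 and 39.5%) and 44.8% over all genes (41.8 and 48.3%). The domains themselves had 42.1% GC, against 42.3% over all closed domains. Masked repeats made up a median of 36.3% of the 21 domains (range 21.5 to 66.4%), against 30.7% of all. The highest shares were 66.4% around Olfr720, Olfr31 and Olfr721-ps1 and 66.1% around Olfr266. The part of base composition and repeats in the distances was not tested.

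The CTCF core motif was found at few of the borders. The core was searched as exact matches on both strands of the reference (C57BL/6J, another strain than that of the cells). A match lay inside 1 of the 42 borders (2.38%), against 6.90% of all boundaries, and within 10 kb of 6 (14.3%), against 26.0%. Of strong borders 5 of 28 had one within 10 kb (17.9%), against 33.7% of all strong boundaries. No domain of the 21 had matches pointing inward at both borders, against 2.62% of all closed domains. These shares carry no interval and rest on few matches, so no difference from all boundaries can be read from them. The matches are shown with 20 bases on either side because they tell which borders hold the core. They are read 5′ to 3′ along the strand of the motif, with the core in capitals, and inward means that the motif reads into the domain.
Left border of Olfr520 and Olfr521, inside the interval, inward (chr7:99619035-99619086, plus strand): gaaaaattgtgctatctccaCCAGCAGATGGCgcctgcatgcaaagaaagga
Left border of Olfr520 and Olfr521, 5.90 kb from the interval, inward (chr7:99625884-99625935, plus strand): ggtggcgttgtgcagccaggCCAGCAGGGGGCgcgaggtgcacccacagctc
Right border of Olfr520 and Olfr521, 8.58 kb, outward (chr7:99813564-99813615, plus strand): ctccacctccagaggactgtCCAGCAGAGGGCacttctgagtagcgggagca
Left border of Olfr291 and Olfr290, 9.57 kb, inward (chr7:84805397-84805448, plus strand): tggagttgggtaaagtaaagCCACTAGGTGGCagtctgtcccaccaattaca
Right border of Olfr372, Olfr373 and Olfr374, 0.928 kb, outward (chr8:72135908-72135959, plus strand): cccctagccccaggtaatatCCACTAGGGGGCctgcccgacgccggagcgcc
Left border of Olfr370, 4.82 kb, inward (chr8:83450154-83450205, plus strand): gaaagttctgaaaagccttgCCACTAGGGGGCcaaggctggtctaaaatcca
Left border of Olfr1402, 5.99 kb, outward (chr3:97338984-97339035, minus strand): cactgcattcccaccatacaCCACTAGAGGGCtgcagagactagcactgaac
The domain of Olfr520 and Olfr521 was the only one with a match near both borders, and all 3 of its matches pointed the same way. An absent match says only that these letters are not in the window, and CTCF binding was not measured here.

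Receptor promoters are known for homeodomain sites, bound by factors such as Lhx2 and Emx2, and for Olf/Ebf sites, bound by Ebf factors. The searched letters were TAATTA or TAATGA for homeodomain sites, and TCCC and GGGA around 2 free bases for Olf/Ebf sites, on both strands, from 250 bases before to 50 after the start. In the RefSeq promoter table for the same build, 32 of the 38 genes were found, of which 9 (28.1%) had a homeodomain match and 0 an Olf/Ebf match, against 41.4% and 0.554% of clustered receptor genes and 13.9% and 0.904% of all promoters of the table. The RefSeq starts were a median of 3.56 kb from the GENCODE starts, and at the same base for 3 genes. At the GENCODE starts, a setting added after that was seen, 18 of 38 genes had a homeodomain match (47.4%, Wilson interval 32.5 to 62.7%), against 50.6% of clustered receptor genes and 13.5% of all protein-coding genes. Olfr462 and Olfr465-ps1 had an Olf/Ebf match (5.26%, interval 1.46 to 17.3%), against 2.47% in clusters and 1.00% of all genes, and 0 of 38 had both. Neither of these Olf/Ebf matches lay wholly within the 250 bases before the start. With either set of starts the homeodomain share of the outside genes was above that of all genes, and its interval at the GENCODE starts includes the share of the clusters. GC content around these starts was lower than around all gene starts, as given above, and its part in the share was not tested.

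**Figure D4:**
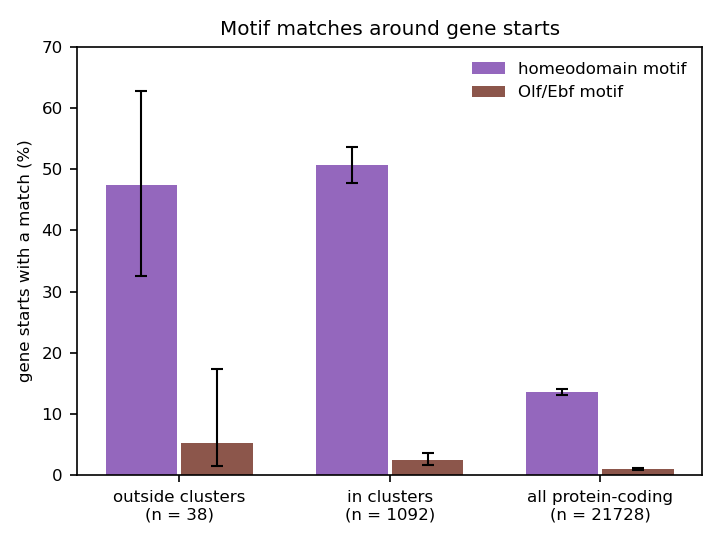
Share of gene starts (vertical axis, percent) with a homeodomain or Olf/Ebf match from 250 bases before to 50 after the GENCODE start, for receptor genes outside clusters, in clusters and all protein-coding genes. Bars show the share and whiskers the Wilson 95% interval (counting error only); homeodomain bars stand at 47.4, 50.6 and 13.5%.

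The 250 bases ahead of the GENCODE starts are shown for the neighbours Olfr520 and Olfr521 and for Olfr291 and Olfr290. In the former pair 2 homeodomain matches stand at nearly the same places, and the latter is the most alike ahead of its starts among the pairs of a run with proteins over 80% identical. The sequences are on the plus strand, which is the strand of these genes, and capitals mark homeodomain matches, TCATTA being TAATGA on the other strand.
Olfr520 (chr7:99730023-99730272): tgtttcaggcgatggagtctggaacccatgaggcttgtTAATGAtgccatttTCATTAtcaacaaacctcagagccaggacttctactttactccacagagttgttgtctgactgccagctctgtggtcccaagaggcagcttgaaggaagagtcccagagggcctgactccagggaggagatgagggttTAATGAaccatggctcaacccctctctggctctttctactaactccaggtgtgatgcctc
Olfr521 (chr7:99763257-99763506): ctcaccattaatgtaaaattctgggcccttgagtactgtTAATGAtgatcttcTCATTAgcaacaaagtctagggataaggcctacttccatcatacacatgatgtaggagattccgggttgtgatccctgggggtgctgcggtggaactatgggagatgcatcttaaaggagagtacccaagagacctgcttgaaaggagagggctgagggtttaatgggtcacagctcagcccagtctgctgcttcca
Olfr291 (chr7:84853303-84853552): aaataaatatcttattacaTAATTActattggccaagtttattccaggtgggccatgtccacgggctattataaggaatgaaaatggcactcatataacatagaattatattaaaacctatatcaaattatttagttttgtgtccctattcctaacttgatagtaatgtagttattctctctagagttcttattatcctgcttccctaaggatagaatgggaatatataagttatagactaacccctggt
Olfr290 (chr7:84912825-84913074): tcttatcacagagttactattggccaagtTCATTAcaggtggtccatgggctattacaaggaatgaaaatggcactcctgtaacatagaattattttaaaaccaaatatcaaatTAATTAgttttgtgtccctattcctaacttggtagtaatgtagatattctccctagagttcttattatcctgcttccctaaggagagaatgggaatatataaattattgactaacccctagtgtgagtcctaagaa
In Olfr520 the matches begin 212, 198 and 60 bases before the start and in Olfr521 211 and 197 bases before it. In Olfr291 the match begins 231 bases before the start, and in Olfr290 the matches begin 221 and 136 bases before it. Aligned, 152 of 250 bases (60.8%) were identical ahead of Olfr520 and Olfr521 and 216 (86.4%) ahead of Olfr291 and Olfr290. At the 4 other such pairs, 46.8 to 53.2% were identical. The alignments allowed gaps and no unrelated windows were aligned, so the share that unrelated sequence would reach is not known.

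The receptor proteins themselves were of uniform length but of diverse kinship. Translated from the reference, the 38 coding sequences gave 308 to 344 residues (median 314) with 0 internal stops. They include the 4 genes whose symbols carry the pseudogene mark ps but which GENCODE classes as protein-coding. The rule took protein-coding genes and the transcript with the fewest stops was kept, so the 0 follows largely from these choices. All but Olfr718-ps1, with 2 coding exons and the longest protein, were coded in 1 exon. The most similar other receptor was sought among the 38 genes and those in clusters, without the 4 of the shorter run on chromosome 17. Identity to it was the best among the highest-scoring alignments, as a share of the shorter protein. This identity had a median of 69.0% and ranged from 45.3% for Olfr1325 (to Olfr707) to 98.4% for Olfr1373 (to Olfr1381). That closest relative stood in the same run for 12 genes, in another run outside clusters for 7 and in a cluster for 19.

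Neighbours in a run were near copies in some runs and distant in others. Olfr372 and Olfr373 were 97.5% identical, Olfr291 and Olfr290 97.1%, Olfr1373 and Olfr1371 95.8%, Olfr462 and Olfr463 93.2%, and Olfr520 and Olfr521 86.1%. Olfr374, the third gene of its run, was 39.0 and 38.7% identical to Olfr372 and Olfr373, and closest to Olfr161 on chromosome 16 (63.9%). Of the 8 pairs, 4 were far less alike, namely Olfr465-ps1 and Olfr466 (39.6%), Olfr1326-ps1 and Olfr1325 (42.4%), Olfr161 and Olfr15 (43.9%), and Olfr222 and Olfr223 (51.9%). The run of 4 on chromosome 4 ranged from 48.9 to 64.0% and the run of 3 on chromosome 14 from 55.7 to 69.9%.

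Some relatives stood farther along the same chromosome. Olfr460 and Olfr459, in different domains of chromosome 6, were 78.7% identical, and Olfr275 and Olfr267 on chromosome 4 were 68.1% identical. Olfr1373 and Olfr1371 were closest to Olfr1381, in a cluster of 19 genes on chromosome 11. Of the 26 genes whose closest relative lay outside their run, 10 had it on the same chromosome, at a median identity of 73.0%, and 16 on another, at 57.3%. The 5 least similar genes, from 45.3 to 51.4%, were Olfr1325, Olfr465-ps1, Olfr718-ps1, Olfr1326-ps1 and Olfr1402, and 3 of these carry the pseudogene mark.

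**Figure D5:**
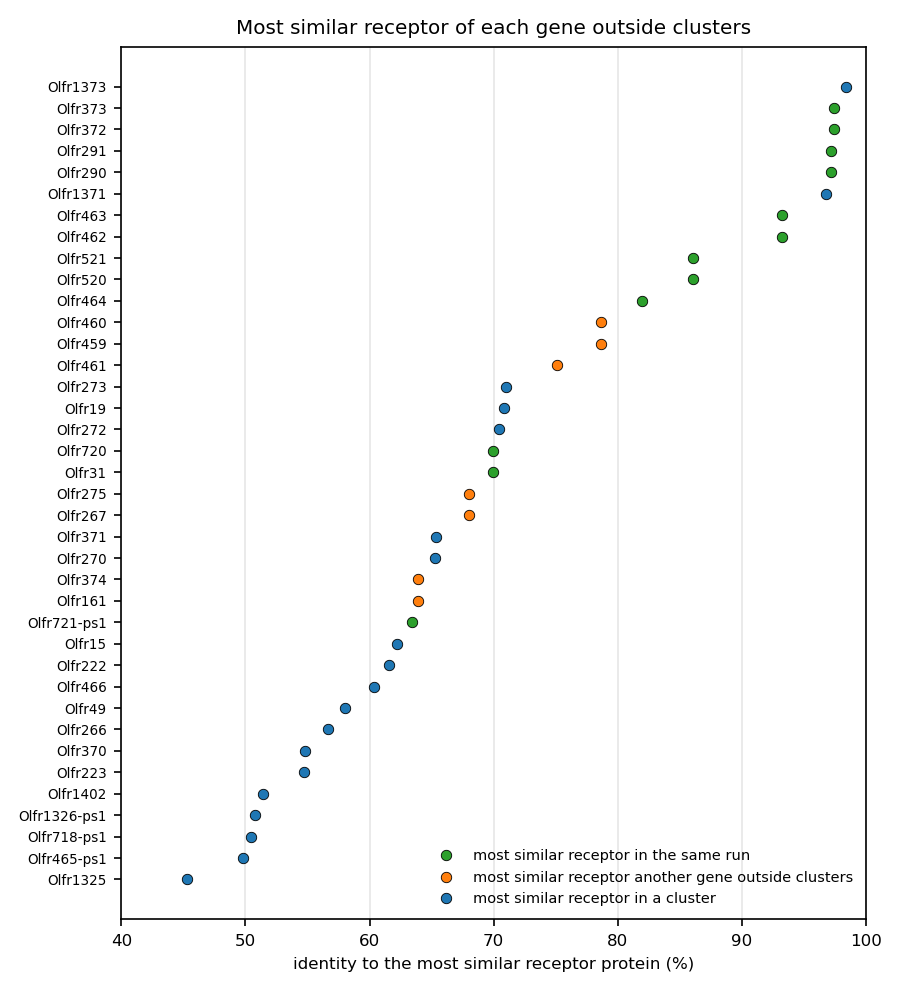
Identity of each of the 38 receptor proteins to the most similar other receptor (horizontal axis, percent, starting at 40). Colours show where the gene of that relative stands, among the 38 and the clustered genes. Closest relatives in the same run (12 genes) reach from 63.4 to 97.5%, and those in clusters (19 genes) from 45.3 to 98.4%.

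Genes that act with the receptors were placed in the same way, from lists chosen by function with earlier results of these data known. They are set beside the 16.4% of all protein-coding genes that started within 10 kb of a boundary. Of 17 genes of signal transduction and receptor transport, 1 started within 10 kb of a boundary (5.88%, Wilson interval 1.05 to 27.0%). It was Gnal, the olfactory G protein subunit, at 3.22 kb from a boundary of 1.57. Rtp1, a chaperone that brings receptors to the surface, started 10.9 kb away, and the cyclase gene Adcy3 and the channel gene Cnga2 48.1 and 26.8 kb. Of 12 genes that regulate receptor genes, 5 had a boundary within 10 kb of their start (41.7%, interval 19.3 to 68.0%), which were Lhx2, Atf5, Emx2, Ebf3 and Ebf1. Among other chemoreceptors, 0 of 15 Taar, 5 of 208 Vmn1r and 6 of 120 Vmn2r genes did so, at median distances of 130 to 161 kb. The outside olfactory receptor genes, at 0 of 38 and 68.4 kb, had the shorter median distance.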

How the data were processed

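Boundaries were called on 1 contact matrix that pools the replicates, per the series' design text, on GRCm38, per the submitters' processing notes. In the deposited list every 5 kb interval carries a class and the authors' score, which was used only to describe and rank boundaries within it. Which caller and settings were used is not given in the sources used here. Contact matrices, insulation tracks and compartments were not analysed here. Pooling hides any spread between replicates, and the depth is unknown.

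Genes came from GENCODE M21 on the same build. A gene started at the 5′ end of its model, with the longest model kept for each symbol (1135 receptor models, 1134 symbols). Distance ran from the start to the nearest edge of an interval and was 0 inside it. A start inside an interval was counted in the domain on its higher-coordinate side. Shares carry Wilson 95% intervals and medians exact binomial intervals. Limits at a count of 0 rest on 3 counts. The placement was tested on simulated data. Proteins were translated from annotated coding exons and aligned globally, and promoters came from the RefSeq table of the build. Python 3.11.15, pandas 2.3.3, scipy 1.17.1, Biopython 1.88 and pysam 0.24.0 were used.

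The genes and lists were chosen with earlier results of these data known. Named in full were the 5 genes closest to and farthest from a boundary, the 3 with the highest and lowest nearest score, the 3 in the longest and shortest domains, every run, and up to 3 neighbours of each in its domain. Alternatives varied the window, the boundaries that count, the gap and size of runs, and the start.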

Additional observations from a re-analysis of the deposited data

How the results depend on the processing

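With the window at 50 kb instead of 10 kb the share of genes near a boundary was 28.9%, while the other 11 alternatives gave 0 to 5.26%. Most of these could only return 0 again, being a narrower window, fewer boundaries or subsets of the same genes. Besides the 50 kb window, only the 25 kb window, the whole gene body and the gap of 250 kb could have raised the share. The median domain was 480 kb with strong boundaries alone, 542.5 kb with boundaries at or above the median score and 250 kb for single genes only, while 6 others gave 275 to 302.5 kb. Domains lengthen by construction when fewer boundaries count. The other starts per domain had a median of 8 with strong boundaries alone and 2 for single genes, with only 9 genes. The homeodomain share was 28.1% at the RefSeq starts and 47.4% at the GENCODE starts, an alternative added after seeing the data, and the cause was not tested. The median distance was between 59.2 and 74.2 kb under 10 alternatives and the median score between 0.714 and 1.00 under 6. Fewer boundaries can only lengthen distances and whole gene bodies can only shorten them, so these settings test little. The score of 1.00 came from counting only boundaries at or above the median score, which can only raise it. Without the longest domain, also added after seeing the data, the medians were 275 kb for the domain and 65.2 kb for the distance. Runs ended by gaps of 250 kb gave 45 genes and by 1 Mb 35, runs that also counted pseudogenes 34, and without chromosome 11 31 genes were left. Merging boundaries within 50 kb left all 7841 as they were. Leaving out a replicate was not possible, as both were combined before boundaries were called. No paired analysis was possible because there is 1 group. The number of genes limits the shares: each interval is wide and treats genes of 1 run as independent.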
